A study of Rattus norvegicus with 24 samples.

Results

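The fibrillar collagens of type I and III are represented here by 3 genes of the 32883 gene IDs in the count table. They are Col1a1 (ENSRNOG00000003897), Col1a2 (ENSRNOG00000011292) and Col3a1 (ENSRNOG00000003357), chosen by ID, and all 3 of 3 passed the filter on low counts. Their names come with the rule that lists these IDs, because the count table holds IDs alone. RNA was sequenced from the left ventricle of Sprague Dawley rats at day 7, in 4 groups of 6 libraries. The Microneedle patch group had an infarct and a self-interlocking patch with small needles, modelled on a honeybee stinger. The Sutured patch group had an infarct and a patch that was sewn on. For the MI group the labels name an infarct and no patch, and the Sham group is the control for the operation. Per the labels' protocols, the infarct region was harvested; the part of the ventricle taken from Sham hearts is not given in the sources used here. The labels name no allele or drug and do not say how the infarct was made, and they do not state that each library came from a separate rat. The p-values therefore measure the spread between these libraries, which may be in part technical.

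Collagen fibrils are the main load-bearing part of the heart's extracellular matrix. Col1a1 encodes the alpha 1 chain and Col1a2 the alpha 2 chain of type I collagen, which combine in a common triple helix and form stiff, thick fibres. Col3a1 encodes the single chain type of type III collagen, a homotrimer found in finer and more compliant fibres. In the infarcted heart, cardiac fibroblasts and the myofibroblasts that arise from them are the main known source of these chains, and the scar they build replaces lost muscle. A type III-rich matrix is known as an early stage of wound repair, and type I collagen comes to dominate in the mature scar.

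The promoter of Col1a2 is shown because the 3 genes moved together between Sham and the infarct groups and because this promoter was the one of the 3 at hand. It is credited to RefSeq, build GRCr8, chr4:33518307-33518606, plus strand, and spans 250 bases before and 50 bases after the annotated start. The 50 bases after it open with atg, a start codon, and hold no stop codon in that frame. The annotated start may thus be that of translation and not of transcription, which was not checked. Capitals mark matches to the searched motifs.

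Col1a2: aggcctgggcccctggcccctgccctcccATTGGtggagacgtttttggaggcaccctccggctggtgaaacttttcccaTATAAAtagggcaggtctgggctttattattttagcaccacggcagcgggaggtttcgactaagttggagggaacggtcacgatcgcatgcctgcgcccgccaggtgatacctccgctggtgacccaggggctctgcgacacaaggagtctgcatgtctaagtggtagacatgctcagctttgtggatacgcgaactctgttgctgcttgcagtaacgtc

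The motif CCAAT was searched on both strands, and so was TATAAA, and so was GGGCGG; none of the matches overlapped another. The Col1a2 window held 1 CCAAT on the minus strand (ATTGG in the printed strand), whose first printed base lies at -221 from the annotated start. It held 1 TATAAA on the plus strand at -170. Both positions count from the annotated start, which may not be the start of transcription. CCAAT on either strand was in 37.5% of the 33469 promoter windows of the same table, TATAAA in 14.2% and GGGCGG in 33.1%. GGGCGG had no match in these letters of Col1a2. Such matches are descriptions of the sequence.

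Total counts ranged from 13590783 to 14552623 with the microneedle patch, from 12574300 to 14437712 with the sutured patch, from 12864218 to 13974505 in MI and from 5443782 to 11757562 for the Sham libraries. The deepest of those was below the shallowest infarct library, so depth and the Sham group cannot be told apart. Sham replicates 4 and 5 had 14079 and 13635 genes detected, against 16223 to 16449 in the other Sham libraries. The total of replicate 4 was 10753596, and some results are also given without both. Sham replicate 4 had the highest Sham level of each collagen, so multiples of the highest Sham library rest on it. Cell type markers could not be looked up by name in a table of IDs, so the tissue label was not checked against them. In bulk tissue, more cells of a type and more RNA per cell cannot be told apart; this holds for every difference given here.

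All 3 collagens were far higher in the infarct region than in Sham ventricle, in each infarct group and without overlap of any library. How many other genes separated in this way was not counted, here or in the comparisons below. The lack of overlap can therefore not be read as particular to the collagens. Col1a1 rose the most, 21.0-fold in MI, 20.5-fold with the sutured patch and 25.3-fold with the microneedle patch relative to Sham. Col3a1 rose 7.58-fold, 6.07-fold and 6.43-fold in the same order, and Col1a2 rose 5.40-fold, 4.87-fold and 7.67-fold. Among all genes tested, 44.7% were called in MI against Sham (21.6% were called higher), 48.0% with the sutured patch (24.1% higher) and 51.5% with the microneedle patch (25.9% higher). The comparisons with Sham share the Sham libraries. None of the 3 genes passed the test in either comparison of a patch with MI or between the patches, where 4.55% of genes were called for the sutured patch against MI, 14.5% for the microneedle patch against MI and 0.316% between the patches. The balance of Col3a1 to Col1a1 reads differed between the microneedle patch and MI, with every microneedle patch library below every MI library; the other comparisons among the infarct groups did not pass for this ratio.

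Levels are given in CPM, the read count relative to library size, with sizes scaled by the trimmed mean of M-values (TMM). Col1a1 had a lowest, median and highest level of 34243, 38836 and 42702 CPM with the microneedle patch. With the sutured patch these were 20703, 34913 and 37194 CPM, in MI 21366, 31348 and 43412 CPM, and in Sham 818, 1311 and 2647 CPM. The lowest infarct library of all, sutured patch replicate 2, was thus well above Sham replicate 4, the highest Sham library. The lowest MI library stood 8.07 times above the highest Sham library, the lowest sutured patch library 7.82 times and the lowest microneedle patch library 12.9 times.

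Mean Col1a1 levels were 38955 ± 2932 CPM with the microneedle patch, 31516 ± 7033 CPM with the sutured patch, 32357 ± 9002 CPM in MI and 1538 ± 641 CPM in Sham (SD, n = 6 each). In edgeR's quasi-likelihood test its log2 fold change from Sham was 4.40 in MI (SE 0.27, adjusted p = 8.66e-12). The log2 fold change was 4.36 with the sutured patch (SE 0.27, adjusted p = 1.32e-11) and 4.66 with the microneedle patch (SE 0.27, adjusted p = 3.19e-12). Adjusted p-values follow Benjamini-Hochberg over the 14540 genes tested, and a gene was called at an adjusted p below 0.05. Only 1.04% of the genes tested had a larger log2 fold change than Col1a1 in MI against Sham. With the sutured patch that share was 1.54%, and with the microneedle patch 1.42%.

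Col3a1 was the more abundant of the major pair in Sham tissue by read count. Its lowest, median and highest levels were 30677, 34778 and 39940.0 CPM with the microneedle patch and 26141, 34285 and 35107 CPM with the sutured patch. In MI they were 34219, 40814 and 48295 CPM, and in Sham 3565, 5169.7 and 7254 CPM. The lowest MI library stood 4.72 times above the highest Sham library, the lowest sutured patch library 3.60 times and the lowest microneedle patch library 4.23 times. Its log2 fold change from Sham was 2.92 in MI (SE 0.17, adjusted p = 6.96e-12), 2.60 with the sutured patch (SE 0.17, adjusted p = 3.01e-11) and 2.69 with the microneedle patch (SE 0.17, adjusted p = 1.11e-11), all by edgeR. Means were 34786 ± 3231 CPM with the microneedle patch, 32845 ± 3468 CPM with the sutured patch, 41002 ± 5606 CPM in MI and 5409 ± 1342 CPM in Sham (SD, n = 6 each).

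Col1a2, the partner chain of Col1a1, drew far fewer reads and varied the most. Its lowest, median and highest levels were 986, 1505 and 1724 CPM with the microneedle patch and 537, 902 and 1248 CPM with the sutured patch. In MI they were 659, 954 and 1578 CPM, and in Sham 31.7, 137 and 454 CPM. The groups did not overlap, but the gap was narrow: the lowest MI library stood 1.45 times and the lowest sutured patch library 1.18 times above Sham replicate 4. The lowest microneedle patch library stood 2.17 times above it.

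The log2 fold change of Col1a2 from Sham was 2.43 in MI (SE 0.44, adjusted p = 7.65e-05), 2.28 with the sutured patch (SE 0.43, adjusted p = 0.000118) and 2.94 with the microneedle patch (SE 0.44, adjusted p = 5.28e-06), by edgeR. Sham set the spread here, with a coefficient of variation of 87.1% and a range of 14.3-fold between Sham replicate 2 (340 counts) and Sham replicate 4 (4578 counts). In MI the coefficient of variation was 33.1%. Fold changes of Col1a2 depended on the tool more than those of the other genes: limma-voom gave a log2 fold change of 3.52 in MI against Sham (adjusted p = 1.00e-07), 3.34 with the sutured patch (adjusted p = 1.31e-06) and 3.99 with the microneedle patch (adjusted p = 1.81e-07). Over all alternatives the adjusted p of Col1a2 against Sham stayed at or below 0.00386 in the 3 comparisons.

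Since Sham libraries were shallower, all libraries were also thinned to the smallest total, and the 3 collagens kept their calls in each comparison with Sham. In MI against Sham the log2 fold change was then 4.38 for Col1a1, 2.40 for Col1a2 and 2.90 for Col3a1 by edgeR. With so many genes called against Sham, a call by itself says little about the collagens, and their place by size of change is given beside it. Of the genes tested, 3.06% had a larger log2 fold change than Col3a1 in MI against Sham, and 4.67% had a larger one than Col1a2. With the sutured patch the shares were 4.90% for Col3a1 and 6.22% for Col1a2. With the microneedle patch they were 5.14% for Col3a1 and 4.24% for Col1a2.

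**Figure D1:**
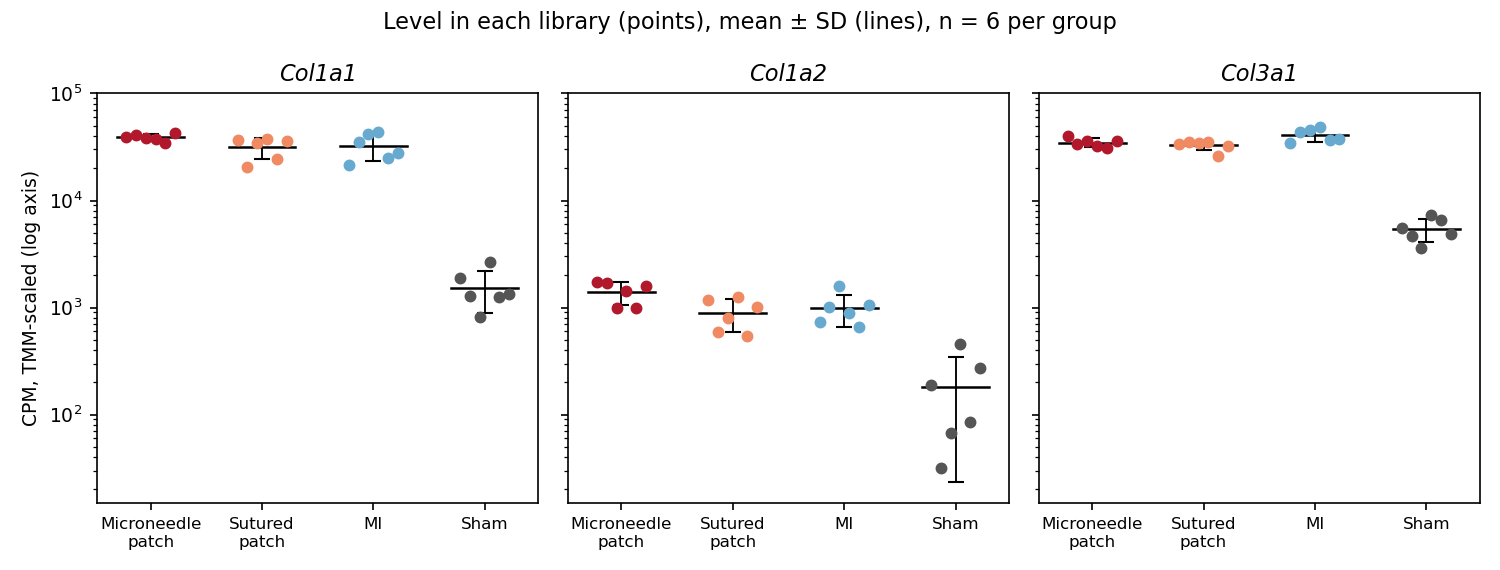
TMM-scaled CPM of Col1a1, Col1a2 and Col3a1 on a log axis, with 1 point per library and lines for the mean ± SD of 6 libraries per group. Sham libraries lie below all others in each panel (at most 2647, 454 and 7254 CPM), and Col1a2 in Sham is the most scattered set.

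Relative to MI without a patch, neither patch was accompanied by a called change of a collagen. With the microneedle patch the log2 fold change from MI was 0.27 for Col1a1 (95% interval -0.22 to 0.75, adjusted p = 0.451), 0.51 for Col1a2 (-0.35 to 1.36, adjusted p = 0.417) and -0.24 for Col3a1 (-0.57 to 0.10, adjusted p = 0.326), by edgeR. Microneedle and MI libraries overlapped for each gene. For Col1a2 3 of 6 microneedle patch libraries stood above every MI library, and for Col3a1 3 of 6 stood below every MI library. All 6 Col1a1 values lay within the MI range.

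With the sutured patch the log2 fold change from MI was -0.04 for Col1a1 (95% interval -0.52 to 0.45, adjusted p = 0.946), -0.15 for Col1a2 (-1.002 to 0.70, adjusted p = 0.870) and -0.32 for Col3a1 (-0.66 to 0.016, adjusted p = 0.276), by edgeR. The call on Col3a1 depended on the tool: limma-voom with sample quality weights gave a log2 fold change of -0.39 and an adjusted p of 0.0111, and the adjusted p ranged from 0.0111 to 0.458 over all alternatives. Again 3 of 6 sutured patch libraries lay below every MI library for Col3a1. The comparisons of the patches with MI share the MI libraries.

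Between the patches, the log2 fold change of the microneedle over the sutured patch was 0.31 for Col1a1 (95% interval -0.18 to 0.79, adjusted p = 0.608), 0.66 for Col1a2 (-0.20 to 1.51, adjusted p = 0.516) and 0.083 for Col3a1 (-0.25 to 0.42, adjusted p = 0.877), by edgeR. For Col1a1, 5 of 6 microneedle patch libraries stood above every sutured patch library. For Col1a2 this held for 4 of 6, and for Col3a1 for 3 of 6. In fold terms the intervals still allow from 0.870-fold to 2.85-fold for Col1a2 and from 0.884-fold to 1.73-fold for Col1a1, so these data do not show that the groups had equal levels. All intervals and p-values among the infarct groups come from the fit to all 24 libraries, so the Sham scatter enters them. For Col1a2, whose Sham values scattered most, the SE was 0.41 between the patches and 0.44 in MI against Sham.

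Ordered by mean level, Col1a1 ran from the microneedle patch through MI and the sutured patch to Sham, and Col1a2 ran in the same order. For Col3a1 the order was MI, microneedle patch, sutured patch and Sham. Only the last step of each order, to Sham, passed the edgeR test; the neighbours above it did not pass it.

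**Figure D2:**
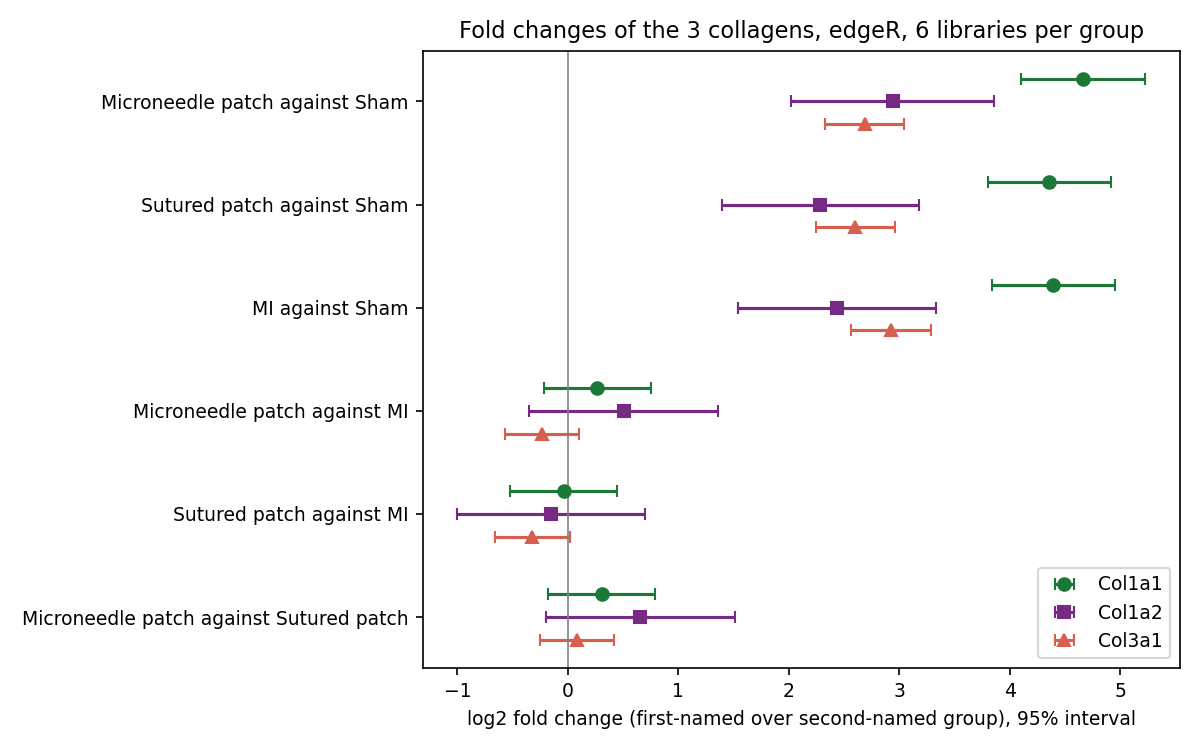
Log2 fold changes (first-named over second-named group) of the 3 collagens in the 6 comparisons, with 95% intervals from the edgeR fit on 6 libraries per group. The intervals against Sham lie to the right of 0, with Col1a1 (4.36 to 4.66) above Col1a2 and Col3a1, while those among the infarct groups cross 0.

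The ratio of Col3a1 to Col1a1 counts within a library does not depend on how libraries are scaled. It is a ratio of reads and not of transcripts, since it was not divided by transcript length, but its change between groups is free of length. The lowest, median and highest ratios were 0.819, 0.877 and 1.01 with the microneedle patch and 0.903, 0.980 and 1.69 with the sutured patch. In MI they were 1.09, 1.31 and 1.60, and in Sham 2.74, 3.65 and 5.26. Each of the infarct groups lay wholly below Sham, and all 6 microneedle patch libraries lay below all 6 MI libraries.

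Mean Col3a1/Col1a1 ratios were 0.894 ± 0.071 with the microneedle patch, 1.09 ± 0.30 with the sutured patch, 1.31 ± 0.20 in MI and 3.76 ± 0.94 in Sham (SD, n = 6 each). On the log2 scale the ratio was lower by 2.04 units in the microneedle patch group than in Sham (difference -2.04), by 1.79 with the sutured patch (difference -1.79) and by 1.50 in MI (difference -1.50). Each gave an exact two-sided permutation p of 0.00216, the smallest that splits of 6 against 6 libraries can give, and 0.00974 after Benjamini-Hochberg adjustment over 18 ratio tests. Col1a1 thus rose more than Col3a1 in every infarct group. The microneedle patch differed from MI by -0.54 log2 units (0.686-fold, exact permutation p = 0.00216, adjusted p = 0.00974), lower in 6 of 6 libraries. Neither gene was called on its own in that comparison, so the ratio does not say which of them moved.

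The sutured patch stood between. Its Col3a1/Col1a1 ratio differed from MI by -0.29 log2 units, and 5 of 6 libraries lay below every MI library (exact permutation p = 0.113, adjusted p = 0.169). Sutured patch replicate 2, at 1.69, was above every MI library instead. Without it the difference was -0.43 (adjusted p = 0.0234 by the same exact permutation test). The microneedle patch was lower than the sutured patch by a difference of -0.25, which did not pass after adjustment (exact permutation p = 0.0498, adjusted p = 0.0815). Without sutured patch replicate 2 that difference was -0.12 (adjusted p = 0.159, exact permutation), and without sutured patch replicate 6 it was -0.30 (adjusted p = 0.0476, exact permutation).

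**Figure D3:**
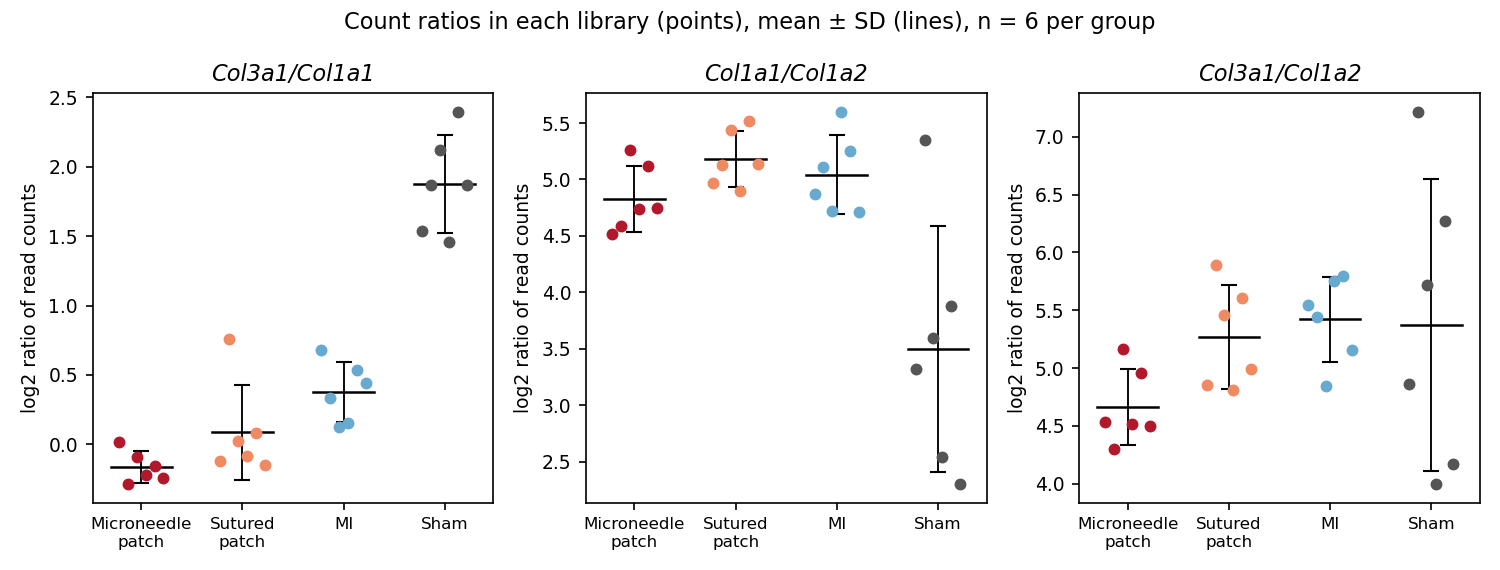
Log2 ratios of read counts within each library for the 3 pairs of collagens, with 1 point per library and lines for the mean ± SD of 6 libraries per group. For Col3a1/Col1a1 the microneedle patch points (at most 0.019) lie below all MI points (at least 0.13), which lie below all Sham points (at least 1.45).

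The ratio of the partner chains, Col1a1 to Col1a2, had a lowest, median and highest value of 22.9, 26.8 and 38.2 with the microneedle patch and 29.8, 35.1 and 45.9 with the sutured patch. In MI the values were 26.3, 31.8 and 48.4, and in Sham 4.93, 11.1 and 40.7. In type I collagen itself the chains occur mostly as a trimer of alpha 1 and alpha 2, with more of alpha 1. Reads assigned to the Col1a2 ID were sparse beside those of Col1a1 in all 24 libraries. The cause of this was not tested, nor was how the reads of this ID were counted. Values of Col1a2 are best read as those of the ID.

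The log2 ratio of Col1a1 to Col1a2 was higher than in Sham by 1.54 in MI (exact permutation p = 0.0130, adjusted p = 0.0334), by 1.68 with the sutured patch (p = 0.0108, adjusted p = 0.0325) and by 1.33 with the microneedle patch (p = 0.0173, adjusted p = 0.0390). Sham replicate 2, at 40.7, overlapped the infarct groups. These calls did not hold under every setting: without Sham replicates 4 and 5 the exact permutation test gave a difference of 1.40 in MI (adjusted p = 0.0750), 1.54 with the sutured patch (adjusted p = 0.0668) and 1.19 with the microneedle patch (adjusted p = 0.0815). Leaving out single libraries gave adjusted p-values up to 0.0519 for MI, up to 0.0390 for the sutured patch, which kept its call, and up to 0.0740 for the microneedle patch. For MI the call was lost without any one of MI replicates 2, 4 and 5 or Sham replicates 1, 3, 4, 5 and 6. For the microneedle patch it was lost without any one of its own 6 replicates or of the same Sham replicates. Among the infarct groups no Col1a1/Col1a2 difference passed, the largest being -0.35 between the microneedle and sutured patch (exact permutation p = 0.0433, adjusted p = 0.0779). Without microneedle patch replicate 3 that difference was -0.44 and passed (adjusted p = 0.0390, exact permutation).

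Col3a1 to Col1a2 gave the remaining pair, which follows from the other ratios. Its lowest, median and highest values were 19.8, 23.1 and 35.8 with the microneedle patch, 28.1, 37.9 and 59.4 with the sutured patch, 28.7, 45.1 and 55.5 in MI and 15.97, 40.9 and 148.3 in Sham. The microneedle patch was lower than MI, with a log2 difference of -0.76 (exact permutation p = 0.0108, adjusted p = 0.0325) and 4 of 6 libraries below every MI library. Against the sutured patch the difference was -0.61 (exact permutation p = 0.0260, adjusted p = 0.0519). That value passed without sutured patch replicate 1 (difference -0.69, adjusted p = 0.0346), without sutured patch replicate 4 (-0.70, adjusted p = 0.0346) or without microneedle patch replicate 3 (-0.70, adjusted p = 0.0390), all by exact permutation. No infarct group passed the test against Sham for this pair, where Sham spanned 15.97 to 148.3.

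Together the 3 collagens held a lowest, median and highest share of all counts of 6.84%, 7.39% and 7.76% with the microneedle patch. The shares were 5.55%, 7.08% and 7.81% with the sutured patch, 5.84%, 7.33% and 8.97% in MI and 0.467%, 0.674% and 0.970% in Sham. Mean shares were 7.36% ± 0.36 with the microneedle patch, 6.78% ± 0.96 with the sutured patch, 7.42% ± 1.29 in MI and 0.691% ± 0.171 in Sham (SD, n = 6 each). The summed share is described without a test. The highest Sham share, that of replicate 4, was 0.970% (95% Wilson interval 0.964% to 0.976%), and the lowest infarct share, that of sutured patch replicate 5, was 5.55% (5.54% to 5.56%). These intervals cover counting error and nothing else, as duplicate reads of 1 molecule cannot be recognised without identifiers.

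Within the collagen counts, Col1a1 made up 51.9% ± 1.87 with the microneedle patch, 47.9% ± 5.65 with the sutured patch, 42.9% ± 3.61 in MI and 21.1% ± 3.75 in Sham (SD, n = 6 each). Col3a1 made up 46.3% ± 1.96, 50.8% ± 5.84, 55.7% ± 3.67 and 76.5% ± 4.86 in the same groups. Col1a2 held the small remainder, 1.86% ± 0.36, 1.34% ± 0.30, 1.33% ± 0.31 and 2.36% ± 1.62. On average, type I chains thus made up most of the collagen reads with the microneedle patch, and Col3a1 did in MI and Sham. For the sutured patch, replicate 2 had a Col3a1 share of 62.2%, and the median was 48.8%, below the mean.

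Col1a1 and Col3a1 were the leading genes of the infarct libraries by read count, which is not a level per length. In 6 of 6 MI libraries Col3a1 ranked 1 and Col1a1 ranked 2 among all gene IDs. With the microneedle patch Col1a1 ranked 1 in all libraries but replicate 1, where Col3a1 did. With the sutured patch ranks 1 and 2 were also held by these genes, in either order. In Sham Col3a1 ranked from 8 to 12 and Col1a1 from 30 to 127. Col1a2 had median ranks of 44 with the microneedle patch, 99.5 with the sutured patch, 93 in MI and 1760 in Sham.

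The 10 most abundant gene IDs of a library held 12.96% ± 0.32 of counts with the microneedle patch, 11.4% ± 0.93 with the sutured patch, 12.3% ± 1.75 in MI and 7.44% ± 1.25 in Sham (SD, n = 6 each). The collagens supplied 55.7% ± 1.69 of that share with the microneedle patch, 58.2% ± 3.77 with the sutured patch, 59.3% ± 2.13 in MI and 4.71% ± 3.70 in Sham. These shares were not tested.

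**Figure D4:**
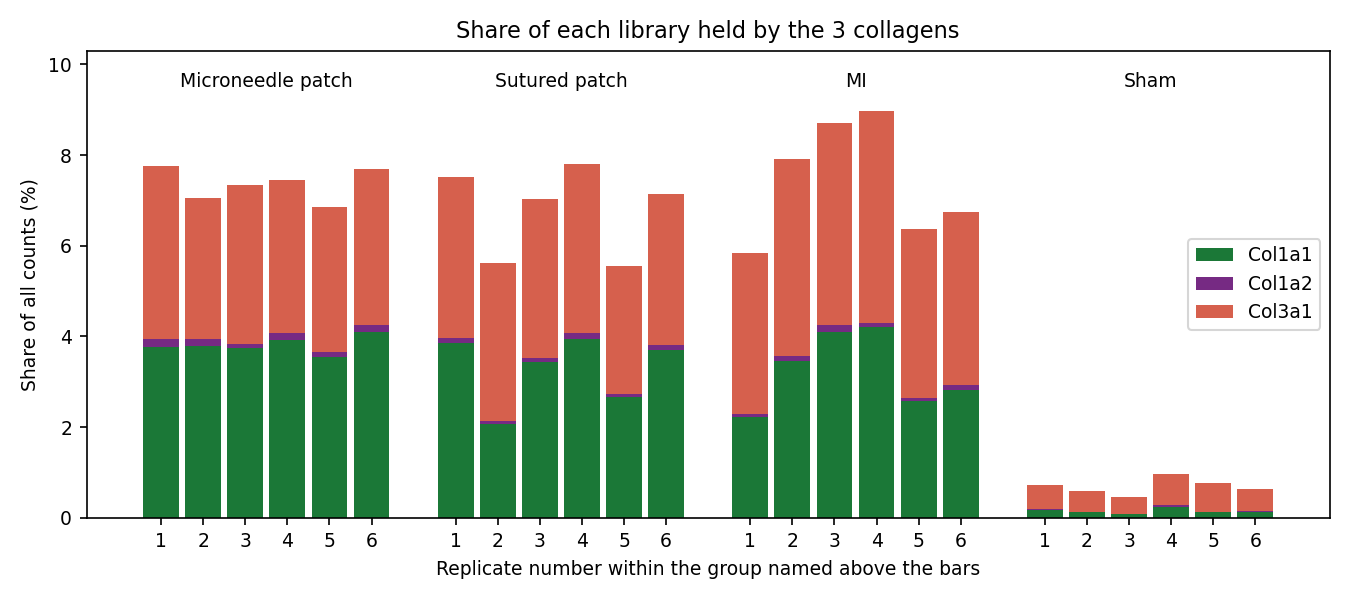
Share of all counts (percent) held by Col1a1, Col1a2 and Col3a1 in each of the 24 libraries, stacked, with replicate numbers below and group names above the bars. Infarct libraries stand between 5.55% and 8.97% and Sham libraries between 0.467% and 0.970%, and Col1a2 is a thin band throughout.

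Spread within groups differed between the genes and the groups. The coefficient of variation of Col1a1 was 7.53% with the microneedle patch, 22.3% with the sutured patch, 27.8% in MI and 41.7% in Sham. For Col3a1 it was 9.29%, 10.6%, 13.7% and 24.8%, and for Col1a2 23.99%, 33.5%, 33.1% and 87.1%, in the same groups. These spreads were not tested against each other. The narrow set of microneedle patch values for Col1a1 went from replicate 5 at 34243 CPM to replicate 6 at 42702 CPM, a 1.25-fold range, whereas MI spanned a 2.03-fold range.

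Across the 6 MI libraries Col1a1 and Col3a1 kept the same rank order. Pearson's r of their log2 CPM was 0.99 (exact permutation p = 0.00139, adjusted p = 0.0167) and Spearman's rho 1 (exact permutation p = 0.00278, adjusted p = 0.0333), with 12 pairs of genes within groups computed. Without the 2 MI libraries farthest from the median, r was 0.98 over the remaining 4. None of the other 11 relations passed after adjustment. With the sutured patch r was 0.90 for Col1a1 and Col1a2 (exact permutation p = 0.0125, adjusted p = 0.0750), but 0.32 for Col1a1 and Col3a1 (exact permutation p = 0.618, adjusted p = 0.618). In Sham r for Col1a1 and Col3a1 was 0.81 (exact permutation p = 0.0542, adjusted p = 0.217), and it was -0.0087 without the 2 libraries farthest from the median. Values of 1 library share its depth and scaling. MI replicate 4, at 43412 CPM of Col1a1, had 48295 CPM of Col3a1, and microneedle patch replicate 6, at 42702 CPM of Col1a1, had 36014 CPM of Col3a1.

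**Figure D5:**
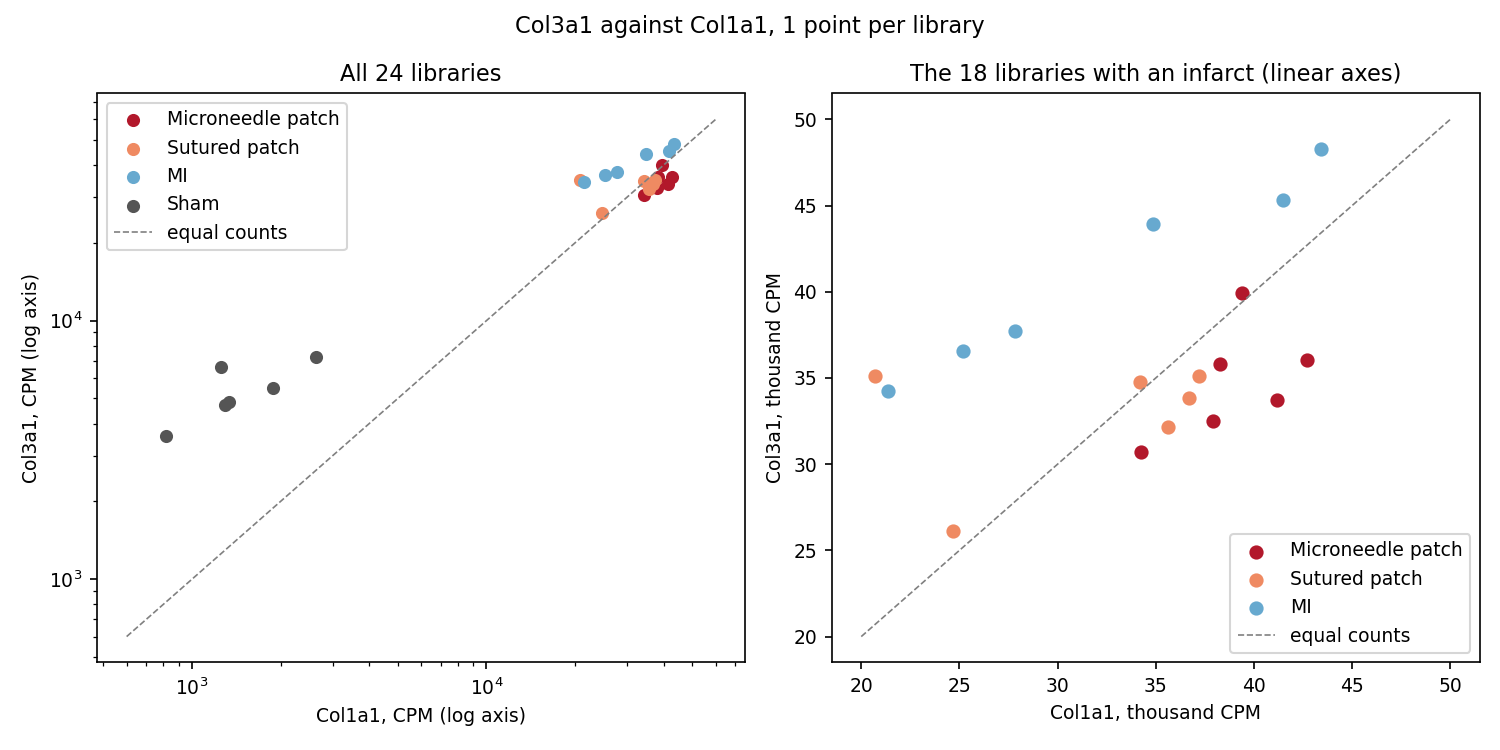
Col3a1 against Col1a1 in CPM, 1 point per library, with the dashed line where both have equal counts; all 24 libraries are on log axes (left) and the 18 infarct libraries on linear axes (right). MI points run along a band above the line (ratios 1.09 to 1.60), 5 of 6 microneedle patch points lie below it, and sutured patch replicate 2 lies far above it at a ratio of 1.69.

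Many other genes had a pattern like that of the collagens over the 24 libraries. Likeness was measured as Pearson's r between a gene's log2 CPM and the mean log2 CPM of the 3 collagens, over 9911 other genes with a mean of at least 10 CPM. It was above 0.9 for 310 genes. The libraries fall into Sham and infarct sets, so this r includes that split and carries no p. The most alike was ENSRNOG00000013720 (r = 0.98), which averaged 787 ± 107 CPM with the microneedle patch, 641 ± 185 CPM with the sutured patch, 787 ± 166 CPM in MI and 91.8 ± 27.6 CPM in Sham (SD, n = 6 each). After group means were subtracted from all values, no gene had r above 0.9, and the highest was that of ENSRNOG00000011445 (r = 0.79). That gene varied most in Sham (13.1 ± 12.2 CPM, against 24.8 ± 1.30 CPM with the microneedle patch and 24.5 ± 2.99 CPM in MI). Col1a2 also varied most in Sham and enters the mean with equal weight. How far this r rests on Col1a2 in Sham was not tested. The IDs given here come without names.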

How the data were processed

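RNA-seq read counts of 24 libraries were analysed. The authors deposited a table of raw counts per Ensembl gene ID, with 1 column per library and no normalization; columns were matched to samples by the code in each title, with 0 columns unmapped and 0 rows without a gene. Libraries were made with a NEBNext Ultra kit from Trizol RNA, per the labels' protocols. HISAT2, featureCounts and the build rn6 are named in the submitters' processing notes; the sources used here give no versions, annotation release, strand setting or treatment of multi-mapping reads. Reads shared with overlapping, antisense or near-identical genes could thus be split or lost.

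edgeR 4.0.16 (R 4.3.3) kept 14540 genes by filterByExpr (minimum count 10), scaled them by TMM and fitted 4 group means to all 24 libraries (20 residual degrees of freedom) with robust quasi-likelihood F tests. SE is the absolute log2 fold change over the square root of F. Ratios of counts were compared by exact two-sided permutation tests. The edgeR and permutation code was tested on simulated data. Alternatives were DESeq2 1.42.0, limma 3.58.1, other scalings and filters, thinning, a replicate block and left-out libraries. A floor of 3 counts was 0.206 to 0.551 CPM. The rule for genes to name took the 3 collagens and the genes most alike by r. Gene lists of collagen processing and markers of cell types were not used here, because the table gives IDs and the reference table at hand (assembly GRCr8) holds 0 Ensembl IDs. The collagens and all lists were chosen with earlier results of these data known. The samples' replicate numbers were not taken as pairs, as explained under the limits.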

Additional observations from a re-analysis of the deposited data

Results flagged for a closer look

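In 28 sets of 6 libraries (3 levels, 3 ratios and the summed share, in 4 groups), 3 held a library far from the others. In each, its gap to the nearest neighbour exceeded 0.625 of the whole range, the 95% limit for 6 normally distributed values. For such values chance gives about 1 in 20 sets. Col3a1 in sutured patch replicate 5 was at 26141 CPM, below the next value of 32166 CPM. The count ratio of Col1a1 to Col1a2 in Sham replicate 2 was 40.7, above the next value of 14.7. On the log2 scale of the ratio tests these were 5.35 and 3.88, with a lowest Sham value of 2.30. There the gap stayed below the limit, so this flag depends on the scale. The count ratio of Col3a1 to Col1a1 in sutured patch replicate 2 was 1.69, above the next value of 1.06; its Col1a1 level of 20703 CPM was the lowest of its group, whereas its Col3a1 level of 35089 CPM was within the group's range.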

How the results depend on the processing

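Under other settings (left-out single libraries aside), 177 fold changes of the collagens kept their direction and their side of the threshold and 3 did not. Total count scaling turned 2 values near 0, Col1a1 in the sutured patch against MI (0.024) and Col3a1 in the microneedle against the sutured patch (-0.00065), and limma-voom called Col3a1 in the sutured patch against MI (-0.39). With single libraries left out, 426 values kept both and 6 turned; Col1a1 in the sutured patch against MI ranged from -0.13 to 0.085 and Col1a2 from -0.27 to 0.058.

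Replicate numbers were not taken as pairs because no label states a pairing. Same-numbered libraries deviated with r from -0.14 to 0.44 across genes, mostly above 0, which does not settle whether they were paired. The replicate block changed no call on a fold change. For ratios, a sign-flip test within replicate numbers over 64 flips passed nowhere after adjustment (lowest adjusted p = 0.0938, permutation). Its unadjusted p cannot fall below 0.03125, so not passing says little. The test gave -0.54 for Col3a1/Col1a1 in microneedle patch against MI, and -1.50, -2.04 and -1.79 in MI, microneedle patch and sutured patch against Sham. It gave -0.76 for Col3a1/Col1a2 in the microneedle patch against MI, and 1.54, 1.33 and 1.68 for Col1a1/Col1a2 in MI, microneedle patch and sutured patch against Sham. For the last group, medians gave 1.53, 1.28 and 1.67, and leaving out Sham replicates 4 and 5 gave 1.40, 1.19 and 1.54; none of these passed. That alternative also turned Col3a1/Col1a2 in MI against Sham to -0.069.

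Leaving out single libraries gave these ranges. Col1a1/Col1a2 ranged from 1.31 to 1.91 (MI against Sham), 1.09 to 1.70 (microneedle patch against Sham) and -0.44 to -0.29 (microneedle against sutured patch). Col3a1/Col1a1 ranged from -0.30 to -0.12 (microneedle against sutured patch) and -0.43 to -0.23 (sutured patch against MI). Col3a1/Col1a2 ranged from -0.23 to 0.42 (MI against Sham), -0.70 to -0.48 (microneedle against sutured patch) and -0.38 to 0.26 (sutured patch against Sham). The Col3a1/Col1a1 difference between the microneedle patch and MI kept its call in all 24 of these (-0.59 to -0.48).

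Shares over the total without the collagens are higher by construction. The rise exceeded the narrow microneedle patch spread: 7.94% for the 3 genes (in MI 8.04%), 4.12% for Col1a1 and 3.68% for Col3a1. The genes called over the whole table depended on the tool and the libraries. For the sutured patch against MI edgeR called 661, DESeq2 1130, limma-voom 3148, a fit of the compared groups alone 2141 and a fit without Sham replicates 4 and 5 1715. For the microneedle patch against MI the last 3 called 5097, 4593 and 3804 (edgeR 2112). Between the patches edgeR called 46, without the filter 28, with the replicate block 159 and without Sham replicates 4 and 5 499, DESeq2 called 419 and limma-voom 802. With single libraries left out, edgeR called 308 (without MI replicate 1) to 1408 (without Sham replicate 5) for the sutured patch against MI and 1036 to 3482 for the microneedle patch against MI, with the same libraries left out. Between the patches it called 302 without Sham replicate 5 and 0 without microneedle patch replicate 2, sutured patch replicate 4 or sutured patch replicate 5, where 1487, 1516 and 1630 genes had an unadjusted p below 0.05. The shares of genes called among the infarct groups are therefore rough. Where settings moved a value, the cause was not tested. Counting error was widest for Col1a2 in Sham, where 340 counts gave plus or minus 10.6% of the share.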
